A study of Homo sapiens with 6 samples.

Results

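CRISP3 and 7 relatives from the CAP protein family (CRISP1, CRISP2, CRISPLD1, CRISPLD2, PI15, GLIPR1 and GLIPR2) were followed in 22Rv1-ABHD5 cells cultured without or with doxycycline (Dox). The members were taken by gene symbol from the table of raw counts, which lists all 8 of them among 27470 genes. CRISP3 was picked because it was among the largest rises with Dox, so its own change is given as a description without a test. The other 7 were picked as its relatives. 22Rv1 is a human castration-resistant prostate cancer cell line. The cells of both conditions had been infected with the same pInducer20 lentivirus, which carries ABHD5, a coactivator of the triglyceride lipase ATGL, behind a Dox-inducible promoter, and had been selected with G418. The control libraries (3, without Dox) and the libraries labelled as overexpressing ABHD5 (3, with Dox) were both from 48 h of culture, and the Dox dose for these libraries is not given in the sources used here. Libraries of parent 22Rv1 cells with Dox were not analysed here, so Dox and ABHD5 cannot be told apart.

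CAP proteins share a domain named after cysteine-rich secretory proteins, antigen 5 of wasp venom and pathogenesis-related proteins of plants. Most are secreted through a signal peptide and folded with several disulfide bonds, and the CRISP branch carries a second cysteine-rich domain at its C terminus. CRISP1 is best known from the epididymis and CRISP2 from the testis, and both are found with sperm. CRISP3 is found in the prostate, in salivary gland and in the specific granules of neutrophils, and it is raised in many prostate carcinomas. CRISPLD1 and CRISPLD2 add LCCL domains to the CAP domain, PI15 is a secreted trypsin inhibitor, GLIPR1 is a p53-responsive gene, and GLIPR2 is a Golgi-associated member that is not secreted.

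Total counts on genes ranged from 3394672 to 7271771 per library, and 12233 genes passed the filter on low counts and were tested with edgeR, with p adjusted over all of them and a threshold of 0.05. ABHD5, the induced gene, had 243, 187 and 360 counts without Dox and 579, 470 and 698 with Dox, and so matched the labels. All 9 prostate luminal markers on the list used (HOXB13 and KRT8 among them) passed the filter. Of 4 basal markers, KRT5 and KRT14 had 0 counts in each library, KRT15 had at most 5 and TP63 at most 1. All 3 endothelial markers had 0 counts in each library. Of 8 blood and immune markers, 5 had 0 counts in each library. The luminal markers summed to 1442 to 1517 CPM without Dox and 898 to 991 CPM with Dox, with 5 of 9 lower and 0 higher in the test, beside 13.7% lower and 11.9% higher over all genes tested. The 7 stromal markers summed to 4.96 to 9.95 CPM without Dox and 7.24 to 11.4 CPM with Dox, with COL1A1 called higher, and the blood and immune markers to 2.09 to 4.34 and 3.55 to 4.73 CPM. Reads on no gene were 32.5% to 34.6% of each library without Dox and 35.6% to 39.5% with Dox. The part of these shifts in the results below was not tested. Levels are given in CPM, counts divided by the TMM-normalized library size, where 1 count is worth 0.131 to 0.310 CPM. The libraries read the 3ʹ end of each transcript, so that a transcript gives counts once whatever its length, and CPM were not divided by length. The labels do not say whether the libraries came from separate cultures, so p-values measure the spread between these libraries, which may be technical.

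CRISP2, CRISP3 and CRISP1 form a cluster on the minus strand of chromosome 6 (hg38, GENCODE 44). CRISP3 (ENSG00000096006) spans 49727376 to 49744437 and its main transcript has 8 exons. CRISP2 spans 49692358 to 49713590, only 13.8 kb downstream of the end of CRISP3, and CRISP1 spans 49834257 to 49877096, at a gap of 89.8 kb on the other side. GLIPR1 lies on chromosome 12 from 75480753 to 75503863, GLIPR2 on chromosome 9 from 36136536 to 36163913, and CRISPLD2 on chromosome 16 from 84819985 to 84920768. All 8 are annotated as protein coding. An antisense gene without a symbol (ENSG00000235122) overlaps CRISP3, and antisense genes overlap CRISPLD1, CRISPLD2, PI15 and GLIPR1. Counts of these genes thus rest on a strand setting not given in the sources used here. A gene on the same strand (ENSG00000260859) also overlaps CRISPLD2, and no strand setting would separate reads in that overlap. The last 500 bases of each main transcript, where the reads of 3ʹ libraries fall, were cut into 451 windows of 50 bases. Of these, 0 occurred, in the sense direction and without mismatch, in an annotated transcript of another gene. Stranded reads of one member would thus not be split with an identical copy. The opposite strand was not searched, so overlap with antisense genes is not covered.

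The 250 bases before the RefSeq start sites of the 3 clustered genes (GRCh38.p14, read 5ʹ to 3ʹ on the minus strand) are shown because these neighbours had such different counts. Capitals mark CG dinucleotides. The sequences cover chr6:49744389-49744638 for CRISP3, chr6:49713544-49713793 for CRISP2 and chr6:49877097-49877346 for the upstream start of CRISP1. The GENCODE starts of CRISP3 (49744437) and CRISP2 (49713590) differ from the RefSeq ones (49744388 and 49713543). Part of each of these sequences thus lies inside the GENCODE gene, and its base content depends on the start used.
CRISP3: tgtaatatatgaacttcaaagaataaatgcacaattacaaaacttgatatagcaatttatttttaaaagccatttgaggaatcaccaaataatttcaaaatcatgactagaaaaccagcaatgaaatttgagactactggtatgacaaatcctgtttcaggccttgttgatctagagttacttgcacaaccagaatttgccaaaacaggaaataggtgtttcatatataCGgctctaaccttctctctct
CRISP2: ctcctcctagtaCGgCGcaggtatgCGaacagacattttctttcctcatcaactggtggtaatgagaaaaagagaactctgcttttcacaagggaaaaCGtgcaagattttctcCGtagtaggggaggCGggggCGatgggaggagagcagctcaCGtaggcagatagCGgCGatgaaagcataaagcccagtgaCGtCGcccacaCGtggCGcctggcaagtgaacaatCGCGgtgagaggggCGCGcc
CRISP1: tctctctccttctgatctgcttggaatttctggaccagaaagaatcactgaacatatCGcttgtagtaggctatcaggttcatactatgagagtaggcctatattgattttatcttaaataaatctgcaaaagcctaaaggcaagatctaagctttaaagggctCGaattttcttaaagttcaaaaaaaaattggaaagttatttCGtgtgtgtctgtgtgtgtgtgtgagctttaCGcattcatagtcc

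The CRISP3 sequence holds 1 CG and 32.4% G and C. Of 34943 promoter windows in the RefSeq table, 3.29% had a GC content this low. The CRISP2 sequence holds 18 CG and 55.2% G and C, against medians of 11 and 58% over all windows, and that of CRISP1 holds 4 CG and 36.8%. CRISPLD2 and GLIPR2, both with GC-rich windows, had 77.6% and 78% G and C (for GLIPR2 at the first of its listed starts). Motifs were searched on both strands in the window from 250 bases before to 50 after the start. CRISP3 held no TATAAA of a classic TATA box, no AGAACA half-site of steroid receptors and no forkhead motif TGTTTAC. These occur in 11.57%, 14.82% and 3.42% of all windows. The E-box spelled CACGTG, found in 7.23% of all windows, was not searched for in those of the members. It is absent from the 250 bases shown for CRISP3 and present in those shown for CRISP2. AGAACA was found once among the windows of the members with a listed start, on the opposite strand 85 bases before the second listed start of CRISP1. No window was listed for CRISPLD1, PI15 or GLIPR1, so these were not searched. The absence of a match says only that these letters are not in this window.

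The main transcripts of the 3 clustered genes each end shortly after an AATAAA polyadenylation signal, which precedes the poly(A) tail that the oligo(dT) primer of the kit binds. The last 30 annotated bases are given with the signal in capitals.
CRISP3: atgcaaAATAAAaagtgtcttgaaaaaaaa
CRISP2: taaacAATAAAttcaaagctttacatctgc
CRISP1: ttcAATAAAgtgtttgaaaaaaaaaaaaaa
The signal was also in the last 30 bases of GLIPR1, GLIPR2 and CRISPLD2.

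CRISP3 was near the limit of detection without Dox and moderately expressed with Dox. Its counts without Dox were 2, 4 and 5, which lies on either side of the 3 counts taken as the limit of detection. With Dox it had 249, 225 and 438 counts. In CPM these were 0.522, 1.24 and 0.873 without Dox against 54.1, 62.6 and 57.5 with Dox. Each library with Dox was far above each library without Dox, and the libraries with Dox were close to each other. The means were 0.879 ± 0.359 CPM (SD, n = 3) and 58.1 ± 4.26 CPM (SD, n = 3). The fitted log2 fold change was 6.03 (standard error 0.26). The ratio of the summed counts, 912 with Dox against 11 without and scaled by library size, was 67.0, with a 95% interval from 37.3 to 134.8 that covers counting error only. In bulk RNA, more cells with CRISP3 mRNA and more CRISP3 mRNA per cell cannot be told apart.

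Among all 12233 genes tested, this rise ranked 11th by fitted log2 fold change, and 4th among the genes with a mean of at least 50 counts. With Dox, the level of CRISP3 ranked 4029th of the 12233 by mean CPM. Of 39 tested genes with as few counts without Dox, which passed the filter only through their counts with Dox, 3 reached as many counts with Dox as CRISP3, itself included. Over all tested genes, 11.9% were higher with Dox at an adjusted p under 0.05 and 4.32% were also at least 2-fold higher; CRISP3 was chosen from these and nothing is read from its place there.

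**Figure D1:**
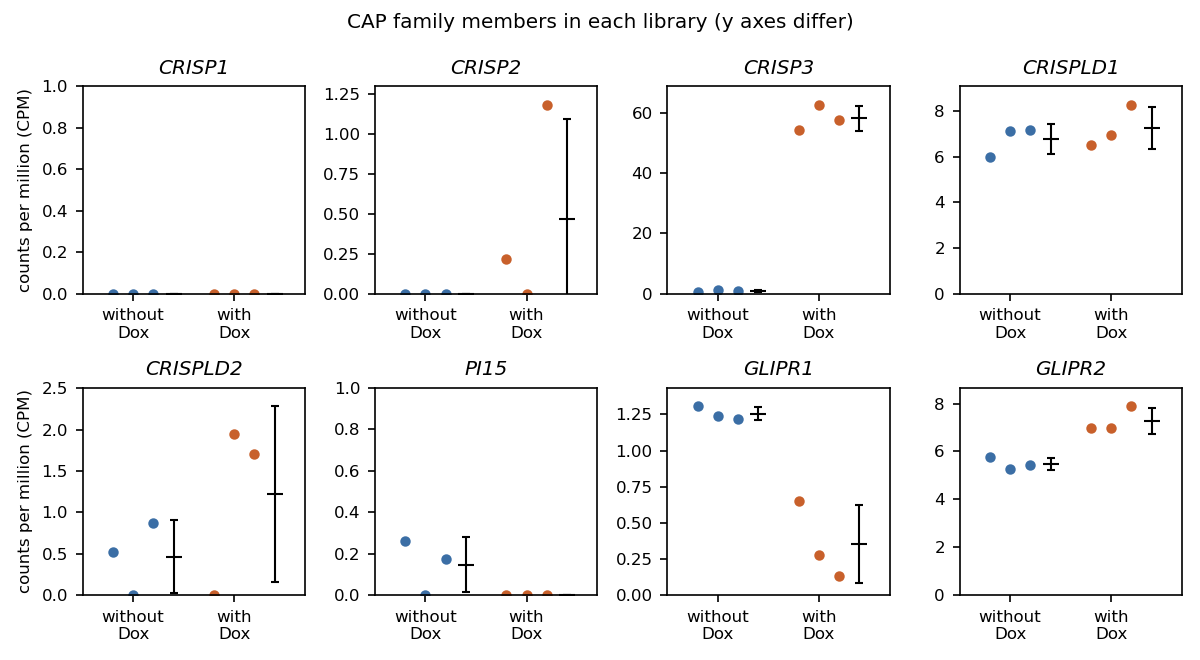
Level of each of the 8 members in CPM (y axes differ) in the 3 libraries without Dox (blue) and the 3 with Dox (orange), with points for libraries and a black mark with its bar for the mean ± SD (cut off at 0). CRISP3 goes from 0.522 to 1.24 CPM up to 54.1 to 62.6 CPM, while no other member exceeds 8.28 CPM in any library.

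The 2 other genes of the cluster did not reach the filter. CRISP2, a sperm protein gene, had 0 counts in each library without Dox and 1, 0 and 9 with Dox. The conditions overlapped, and 9 of the 10 counts came from replicate 3, the deepest library. Without replicate 3 with Dox only 1 count is left in all, and no fold is given. With no filter on low counts, edgeR gave it an adjusted p of 0.0821, which is not past the threshold. CRISP1, the epididymal member, had 0 counts in all 6 libraries. A count of 0 allows up to 0.394 CPM in the deepest library, counting error only.

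Most of the genes matched around CRISP3 had few or no counts in both conditions. The table lists 12 genes within 500 kb of it, CRISP1 and CRISP2 included, and 8 of them (CRISP1, PGK2, RHAG and 5 beta-defensin genes) had 0 counts in all 6 libraries. GLYATL3 had 1 count in all. C6orf141 had 1, 0 and 2 counts without Dox and 0, 6 and 3 with Dox. CENPQ, a subunit of the inner kinetochore whose start lies 281.1 kb from that of CRISP3, was the only one of the 12 tested. It had 173, 160 and 334 counts without Dox and 163, 175 and 221 with Dox, a log2 difference of -0.46 with a standard error of 0.18, and missed the threshold in edgeR at an adjusted p of 0.0694. Its adjusted p was 0.00598 to 0.251 over 15 other settings, and it passed without a filter, with the replicate block (0.0339) and without replicate 2 with Dox (0.00598), each time as lower with Dox. None of the 12 was called higher in any of these settings.

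**Figure D2:**
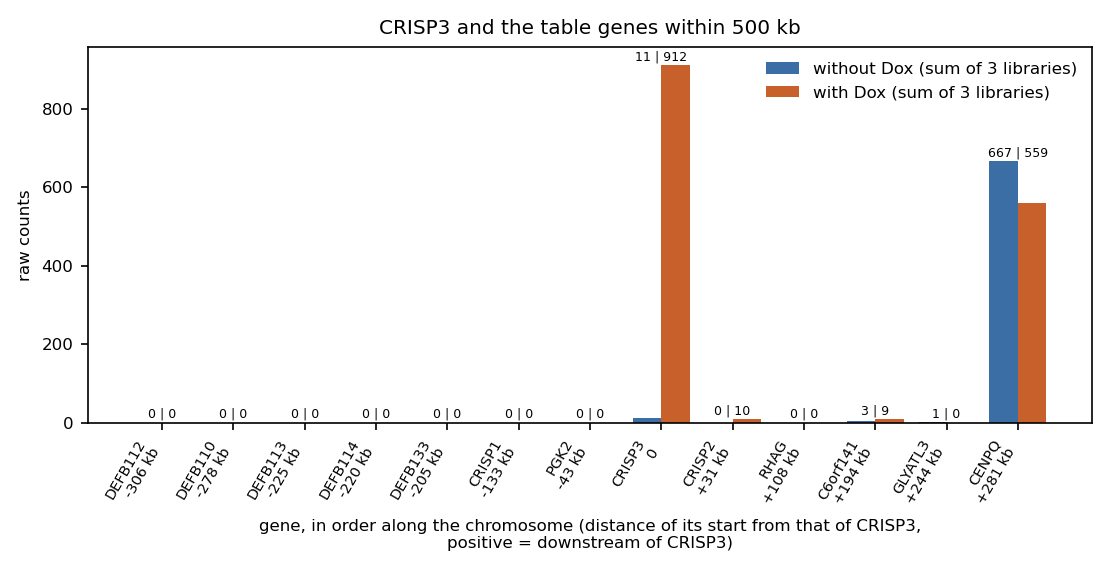
Raw counts summed over 3 libraries without Dox (blue) and with Dox (orange), given above the bars, for CRISP3 and the 12 genes matched by symbol within 500 kb of it. They are in order along the chromosome, with the distance of each start from that of CRISP3 in kb (positive is downstream). CRISP3 goes from 11 to 912 counts between matched neighbours at or near 0, and CENPQ has 667 and 559.

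CRISPLD1 and GLIPR2 were the members with the highest levels without Dox, and neither passed the test. CRISPLD1 lies on chromosome 8 from 74984505 to 75034558, at a gap of 129.5 kb from PI15 (74824534 to 74855029). CRISPLD1, which encodes a secreted protein with CAP and LCCL domains, had 23, 23 and 41 counts without Dox and 30, 25 and 63 with Dox. Its levels overlapped between the conditions, with 6.77 ± 0.657 CPM without Dox and 7.25 ± 0.912 with Dox (SD, n = 3 each). Its log2 fold change of 0.11 had a standard error of 0.27 and a 95% interval from -0.45 to 0.68, and edgeR gave an adjusted p of 0.800. As a fold, this interval runs from 0.732 to 1.60.

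GLIPR2, the Golgi-associated member, had 22, 17 and 31 counts without Dox and 32, 25 and 60 with Dox. In CPM it was 5.75, 5.27 and 5.41 without Dox and 6.96, 6.96 and 7.88 with Dox. Each library with Dox was above each library without Dox, a pattern that 19.0% of all tested genes showed. Its log2 fold change of 0.42 had a standard error of 0.27 and a 95% interval from -0.16 to 0.99, and the adjusted p of 0.290 from edgeR was not past the threshold. Of the other 7 members, then, 2 were tested and 0 were called by edgeR, with 0 at an unadjusted p under 0.05 and 0 called by DESeq2, against 25.5% of all tested genes called in either direction.

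**Figure D3:**
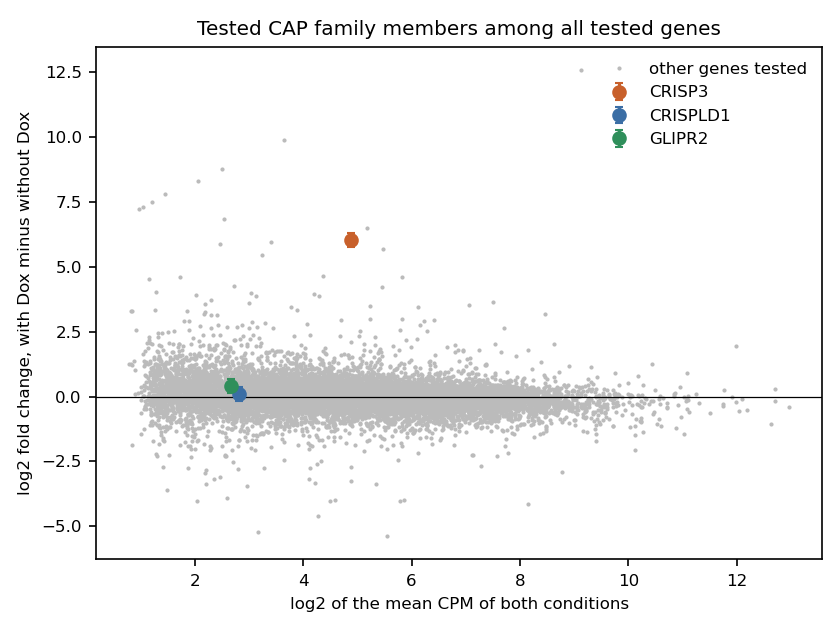
Log2 fold change (with Dox minus without Dox, y axis) against the log2 of the mean CPM (x axis) for the 12233 genes tested (grey), with the 3 tested members in colour and bars for the standard error. CRISP3 lies at 6.03, far above the bulk of genes of its level, and CRISPLD1 and GLIPR2 lie at 0.11 and 0.42.

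GLIPR1 had few counts, and fewer with Dox. The gene, first described in glioma and known as a p53 target, had 5, 4 and 7 counts without Dox and 3, 1 and 1 with Dox. In CPM these were 1.31, 1.24 and 1.22 against 0.652, 0.278 and 0.131, so that the conditions did not overlap. Among tested genes, 20.5% had each library with Dox below each without Dox. The summed counts, 16 against 5, gave a ratio of 0.253 (95% interval 0.0724 to 0.722, counting error only). GLIPR1 did not pass the filter, and in the fit without a filter edgeR gave a log2 fold change of -1.87 with a standard error of 0.94, an unadjusted p of 0.0469 and an adjusted p of 0.174. KRR1, which overlaps GLIPR1 on the opposite strand, had 51.4 ± 4.05 CPM without Dox and 54.9 ± 6.93 with Dox (SD, n = 3 each), with a log2 fold change of 0.09 and an adjusted p of 0.699 in edgeR. Without the strand setting, reads of GLIPR1 and KRR1 in the overlap cannot be told apart.

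CRISPLD2 and PI15 were at or near the limit of detection. CRISPLD2, a secreted glycoprotein gene known to respond to glucocorticoids, had 2, 0 and 5 counts without Dox and 0, 7 and 13 with Dox. Replicate 1 with Dox had none while the other libraries with Dox had more than any without, so the conditions overlapped. The ratio of the summed counts was 2.31 (95% interval 0.939 to 6.47, counting error only), which includes no change. PI15 had 1, 0 and 1 counts without Dox and 0 in each library with Dox, and no fold is given at this depth.

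CRISP3 went from a minor to the main source of CAP family counts. It made up 2 of 55, 4 of 48 and 5 of 90 counts of the 8 members without Dox, or 3.64%, 8.33% and 5.56%. With Dox it made up 79.0%, 79.5% and 75.0%, with the lowest bound at 71.3% and the highest at 84.1% (Clopper-Pearson 95% intervals, counting error only). The mean share was 5.84% ± 2.36 without Dox and 77.9% ± 2.48 with Dox (SD, n = 3 each). The summed level of the 8 members was 15.0 ± 0.678 CPM without Dox and 74.7 ± 5.43 with Dox. Without CRISP3, the other 7 summed to 14.1 ± 0.639 CPM without Dox and 16.6 ± 2.44 with Dox (SD, n = 3 each).

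**Figure D4:**
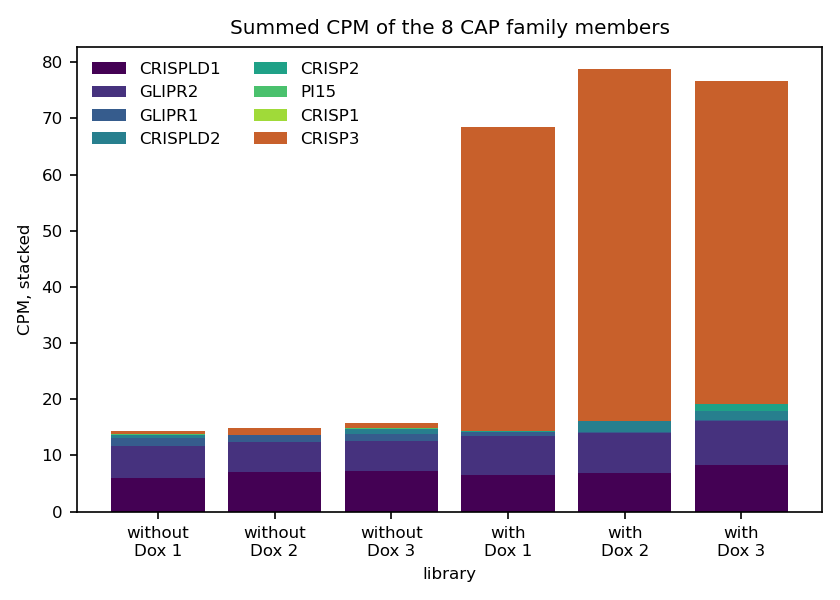
Stacked CPM (y axis) of the 8 members in each library (x axis), with CRISP3 in orange on top. The part below the orange stays between 13.6 and 19.2 CPM in all 6 libraries, and the orange part exceeds 54 CPM in each library with Dox.

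The genes whose profile over the 6 libraries was most like that of CRISP3 were CTNNA2, APOE, GPD1, ANKRD16 and NGFR. Likeness was the root mean square difference of log2(CPM + 0.5) after each gene was centred on its own mean, and was 0.269, 0.345, 0.396, 0.506 and 0.591. It is a description over 6 libraries, with no test. For genes at or near 0 counts without Dox, it depends on the added 0.5. The fitted log2 fold change of CTNNA2 was 9.89, against 6.03 for CRISP3. CTNNA2, which encodes the neural alpha-catenin, had 0 counts in each library without Dox and 123, 87 and 180 with Dox. APOE, the lipid carrier apolipoprotein E, had 6, 7 and 8 counts without Dox and 311, 249 and 935 with Dox. GPD1, the cytosolic glycerol-3-phosphate dehydrogenase, had 0, 1 and 3 counts without Dox and 84, 71 and 188 with Dox. ANKRD16 had 15, 17 and 25 against 478, 429 and 793, and NGFR, the low-affinity neurotrophin receptor, 1, 3 and 1 against 86, 58 and 158. All of them had every library with Dox above every library without, as the likeness to CRISP3 demands. Of these genes, ANKRD16 alone was also among the 5 with the highest Pearson correlation with CRISP3.

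**Figure D5:**
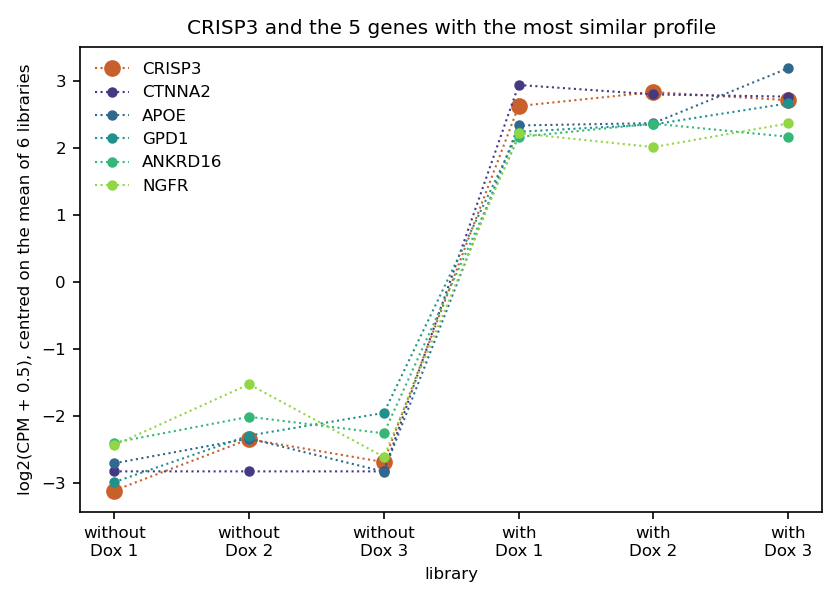
Log2(CPM + 0.5) of CRISP3 (large orange points) and the 5 genes with the most similar profile, each centred on its mean over the 6 libraries (x axis), with dotted lines that only link the points of a gene. All lie below -1.5 without Dox and above 2 with Dox.

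The rest of the CAP superfamily showed little expression. Of PI16, R3HDML, GLIPR1L1, GLIPR1L2, CLEC18A, CLEC18B and CLEC18C, 5 had 0 counts in all libraries and 0 passed the filter. GLIPR1L1, which encodes a sperm membrane protein and lies 110.2 kb from GLIPR1, had 9, 3 and 5 counts without Dox and 5, 6 and 10 with Dox. GLIPR1L2, at a gap of 48.1 kb from GLIPR1, had 0, 1 and 0 counts without Dox and 7, 7 and 11 with Dox. It was singled out after its values were seen. Its ratio of summed counts was 20.2 (95% interval 3.31 to 830.1, counting error only). The ratio rests on 1 count, in replicate 2 without Dox. At so few counts without Dox, a rise was the only call open to GLIPR1L2. With no filter edgeR gave it an adjusted p of 0.00482. That fit called 3403 of 19356 genes. Of the 3 genes of this cluster, GLIPR1L2 had more counts in each library with Dox than in any without. Among all genes tested, 19.0% had each library with Dox above each without, by CPM. The conditions overlapped for GLIPR1L1. GLIPR1 had fewer counts, with an adjusted p of 0.174 (edgeR, no filter) and reads not separable from those of KRR1 in the overlap.

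Of the 2 plasma and seminal proteins known to bind CRISP3, MSMB (beta-microseminoprotein) had 5, 3 and 2 counts without Dox and 0, 0 and 5 with Dox, and did not pass the filter. A1BG (alpha-1B-glycoprotein) had 44, 21 and 52 counts without Dox and 61, 31 and 108 with Dox, which in edgeR was 0.43 on the log2 scale with a standard error of 0.26 and an adjusted p of 0.256. Neither was called.

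Of 20 genes for proteins secreted by the prostate or found in seminal plasma, 11 were tested, 3 were higher and 4 were lower with Dox, and 4 did not pass the test, beside 11.9% higher and 13.7% lower over all genes tested. Their median log2 fold change was -0.29, beside 0.02 over all genes tested. CLU, the chaperone clusterin, rose from 1656 ± 362 to 6450 ± 1206 CPM, a log2 fold change of 1.96, and TIMP1, an inhibitor of metalloproteinases, rose by 1.09 on the log2 scale (edgeR, adjusted p = 3.232e-07 and 1.981e-05). NPY, neuropeptide Y, had 0, 0 and 1 counts without Dox and 38, 29 and 141 with Dox (ratio of summed counts 168.2, 95% interval 29.9 to 6675, counting error only) and an adjusted p of 1.553e-06 in edgeR. The ratio rests on 1 count, in replicate 3 without Dox, and without that library none is left. NPY passed the filter only through its counts with Dox, so a rise was the only call open to it. It is 1 of the 3 counted as higher. The fitted log2 fold change of NPY ran from 5.02 to 8.79 over the other settings. The kallikreins KLK4 and KLK2 fell by 2.60 and 1.69 on the log2 scale (edgeR, adjusted p = 2.010e-07 and 0.00145), and the acid phosphatase gene ACPP fell by 1.16 (edgeR, adjusted p = 0.0492), a call that was lost in 11 of 15 other settings (adjusted p up to 0.241). KLK3, which encodes PSA, had -0.30 (edgeR, adjusted p = 0.611).

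CRISP3 was first isolated from neutrophil granules, and the other listed genes for neutrophil granule proteins, of any granule type, were at or near 0 here. Of 17 such genes, LTF, LCN2, MMP8, MPO and ELANE among them, 11 had 0 counts in all libraries, 16 had at most 3 counts in any library and 0 passed the filter. Their summed level was 0.522 to 1.05 CPM without Dox and 0.835 to 1.52 CPM with Dox. The defining markers S100A8, S100A9 and FCGR3B were at 0 counts in each library.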

How the data were processed

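RNA from 22Rv1-ABHD5 cells was sequenced from the 3ʹ end of poly(A) RNA (Lexogen QuantSeq, the REV kit in the methods and the FWD kit in the sample labels). Per the methods, single-end reads were aligned by STAR against hg38, and the counts the authors deposited are raw and keyed by gene symbol. The submitters' processing notes also name CASAVA 1.8.2, FastQC, HTSeq and edgeR. The annotation and strand setting are not given in the sources used here. The authors also deposited a normalized signal per library, scaled by a method not given in these sources, which served only as an alternative chosen after seeing the data.

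The 5 summary rows were kept out of library sizes: reads on no gene made up 32.5% to 39.5% and ambiguous reads 3.05% to 3.37% of each library. Counts were tested with edgeR 4.0.16 in R 4.3.3, with filterByExpr, TMM, the quasi-likelihood test and a threshold of 0.05 on the p adjusted by Benjamini and Hochberg. The test was checked on simulated counts. Alternatives were other normalizations, filters and tests (DESeq2 1.42.0), the replicate number as a block, and fits without any 1 library. Ratios of summed counts have exact conditional 95% intervals. Replicates of a condition differed beyond sampling noise in each pair (chi-square per degree of freedom 4.07 to 11.3). Sequences are from RefSeq tables (GRCh38.p14, 6 of 8 members not on chromosome 8, of which 5 were in the promoter table) and GENCODE 44 transcripts. The members and lists were chosen with earlier results of these data known. Named by rule were all members, the 5 genes most like CRISP3, its tested neighbours, and up to 3 called genes per list and direction. Other genes named fell outside this rule, KRR1, GLIPR1L1, GLIPR1L2, KLK3, A1BG and MSMB among them.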

Additional observations from a re-analysis of the deposited data

How the results depend on the processing

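The log2 fold change of CRISP3 stayed within the spread between replicates (0.28 on the log2 scale) in 13 of 14 other settings. It was 5.71 in the deposited normalized values, to which a pseudocount of 1 was added here, and 5.80 to 6.26 with each library left out. With at least 10 counts in every library CRISP3 was not in the fit, since it has fewer without Dox. The log2 fold change of CRISPLD1 was 0.11 and changed sign only without replicate 3 with Dox (-0.013), with a range of -0.013 to 0.18 over the 6 libraries left out, and GLIPR2 had 0.34 to 0.45. Neither passed the threshold in any setting (adjusted p of at least 0.544 and 0.156, edgeR, DESeq2 or limma). The number of other members called was 0 in all 15 settings, with 2 at an unadjusted p under 0.05 without a filter (edgeR). Among the 12 matched genes within 500 kb of CRISP3, the number called went from 0 to 1, CENPQ, without a filter and with the replicate block. It was 0 to 1 with each library left out. The cause was not tested. The share of CRISP3 in the members' counts was 4.60% to 6.94% without Dox and 77.0% to 79.3% with Dox when a library was left out. By Pearson correlation, a measure that ignores the size of the change, 1 of the 5 genes most like CRISP3 was the same.

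Genes called numbered 3125, 1451 higher and 1674 lower, and 2181 to 3112 with each library left out. With library totals alone there were 2179 higher and 1136 lower, and the median of all genes moved from 0.02 to 0.14 on the log2 scale. Relative to that median CRISP3 had 6.01, CRISPLD1 0.097 and GLIPR2 0.40. Libraries with the same number did not deviate together in each pair (r -0.0096, 0.23 and 0.086), so the replicate block is only an alternative; it gave 3537 genes and changed no call of a member. At this depth, 5 of the 8 members were under the filter and were not among the genes tested with it.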
